A study of Mus musculus with 16 samples.

Results

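The 10 genes described here carry the MHC class I antigen presentation pathway and its immunoproteasome: H2-K1, H2-D1, B2m, Tap1, Tap2, Tapbp, Nlrc5, Psmb8, Psmb9 and Psmb10. They were chosen by gene symbol, and all 10 were among the 56941 genes counted and among the 16306 genes that passed the filter on low counts. The cells were primary murine gingival fibroblasts (mGF) of WT genotype, grown out of gum tissue around the upper second molar of C57Bl6 mice aged 3 to 6 months and used at passages 2 to 8. BSA (control) libraries came from cells given fatty-acid-free carrier alone, IL-1β libraries from cells given 1 ng/mL of the cytokine, palmitate libraries from cells given 200 µM of the saturated fatty acid on BSA, and palmitate + IL-1β libraries from cells given both, all for 24 h, with 4 libraries per condition (replicates 1 to 4, 5 to 8, 9 to 12 and 13 to 16, respectively). The paper describes IL-1β as added to BSA vehicle or to palmitate, whereas the labels of the IL-1β libraries name IL-1β alone. Nothing in the labels ties the libraries to separate mice or cultures, so that p-values measure the spread between these libraries, which may be technical. The culture is a primary explant culture without immune cells added, and it models the gingival fibroblast alone.

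MHC class I molecules display peptides made inside the cell to CD8+ T cells. Most of these peptides are cut by the proteasome, whose standard catalytic subunits Psmb5, Psmb6 and Psmb7 can be replaced by the inducible subunits Psmb8, Psmb9 and Psmb10 to form the immunoproteasome. The Tap1 and Tap2 transporter carries the peptides into the endoplasmic reticulum, tapasin (Tapbp) holds the empty class I molecule at the transporter, and a heavy chain (here H2-K1 or H2-D1) with β2-microglobulin (B2m) leaves for the surface. Nlrc5 is the transactivator that works at class I promoters through the factors bound to their conserved elements. In fibroblasts the pathway is kept low and is known to rise with interferon and other inflammatory signals.

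On GRCm39, 7 of the 10 genes lay on chromosome 17, in the mouse MHC. Psmb9 (chr17:34400960-34406738, minus strand), Tap1 (chr17:34405996-34416199, plus), Psmb8 (chr17:34416690-34420428, plus) and Tap2 (chr17:34422501-34435829, plus) followed one another within 34870 bases. Exons of Tap1 and Psmb9 overlapped on opposite strands, with the start sites of their canonical GENCODE transcripts 363 bases apart. The promoter windows below use RefSeq start sites, which are placed otherwise for this pair. Tapbp (chr17:34134873-34148267, plus), H2-K1 (chr17:34214987-34219321, minus) and H2-D1 (chr17:35481691-35486475, plus) were the other genes on this chromosome. Nlrc5 (chr8:95160984-95253900, plus) and Psmb10 (chr8:106662362-106665077, minus) lay on chromosome 8, and B2m (chr2:121977957-121983594, plus) on chromosome 2.

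Promoter sequences are shown because the genes moved together across the conditions and because NF-κB, interferon factors and Nlrc5 are known to act on class I promoters. RefSeq windows (GRCm38.p6, from 250 bases before to 50 bases after a start site) were at hand for 8 of the 10 genes, Tap2 and Nlrc5 being without one. The 250 bases before the start are printed 5′ to 3′ on the strand of the gene for the heavy chains, B2m, Tap1 and Psmb8. Capitals mark matches, on either strand, to an interferon-stimulated response element (GAAANNGAAA), a gamma-activated site (TTCNNNGAA), the NF-κB consensus, a Y box (CCAAT, or ATTGG on the other strand) or a CREB/ATF core (TGACG, or CGTCA on the other strand).
H2-K1, chr17:34000348-34000597, minus strand: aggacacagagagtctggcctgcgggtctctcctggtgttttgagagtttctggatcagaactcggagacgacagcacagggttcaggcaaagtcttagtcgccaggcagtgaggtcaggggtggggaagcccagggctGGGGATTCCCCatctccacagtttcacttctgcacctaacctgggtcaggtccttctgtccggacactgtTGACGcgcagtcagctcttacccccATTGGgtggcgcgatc
H2-D1, chr17:35262844-35263093, plus strand: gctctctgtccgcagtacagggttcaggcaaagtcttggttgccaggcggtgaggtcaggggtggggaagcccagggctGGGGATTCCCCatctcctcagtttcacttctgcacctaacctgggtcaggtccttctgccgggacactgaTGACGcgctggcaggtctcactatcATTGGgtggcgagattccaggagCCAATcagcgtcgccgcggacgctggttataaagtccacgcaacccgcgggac
B2m, chr2:122147437-122147686, plus strand: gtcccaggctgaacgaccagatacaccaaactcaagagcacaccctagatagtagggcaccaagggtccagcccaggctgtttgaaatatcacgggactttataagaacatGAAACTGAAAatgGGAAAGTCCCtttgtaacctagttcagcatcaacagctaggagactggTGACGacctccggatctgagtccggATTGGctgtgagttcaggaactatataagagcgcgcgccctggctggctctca
Tap1, chr17:34187306-34187555, plus strand: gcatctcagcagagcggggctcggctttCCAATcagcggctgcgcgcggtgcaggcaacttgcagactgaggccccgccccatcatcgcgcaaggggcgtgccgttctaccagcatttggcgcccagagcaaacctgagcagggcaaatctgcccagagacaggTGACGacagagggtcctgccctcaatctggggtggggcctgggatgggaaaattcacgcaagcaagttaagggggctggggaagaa
Psmb8, chr17:34197945-34198194, plus strand: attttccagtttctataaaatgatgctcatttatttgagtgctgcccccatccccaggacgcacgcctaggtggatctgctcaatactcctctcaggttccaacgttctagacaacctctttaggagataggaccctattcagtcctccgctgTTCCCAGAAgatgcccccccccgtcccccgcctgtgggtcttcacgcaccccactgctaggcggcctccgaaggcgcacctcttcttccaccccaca

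The heavy chain promoters shared the same arrangement, with an NF-κB match upstream of TGACG and ATTGG. B2m held these matches plus a GAAANNGAAA match just before its NF-κB match. Counting the last base before the start site as -1, the NF-κB match began at -111 in H2-K1, -171 in H2-D1 and -126 in B2m. H2-K1 had another RefSeq window, not printed, with a different start site, from which the same match began at -125. The GAAANNGAAA match of B2m began at -139. Matches to the NF-κB consensus were found in 3 of the 8 genes and in 4.51% of 32851 RefSeq windows. GAAANNGAAA was found in B2m alone and in 3.44% of windows, and TTCNNNGAA in Psmb8 alone and in 8.30% of windows. TGACG stood in 5 of the 8 genes and 20.8% of windows, and CCAAT in 6 of the 8 and 37.4% of windows. The Tap1 window and that of Psmb9, on the opposite strand, shared 275 of their 300 bases, so that a match in the shared stretch counts for both. These are matches of letters, and binding was not measured. Other forms of these elements were not searched for, so that a window without a match may still hold one.

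Libraries held 21234789 to 35329711 counts on genes, except for palmitate replicate 10, with 92752515. The mitochondrial genome accounted for 10.7% to 14.0% of these. The fibroblast label was checked against 9 markers, all expressed, whose summed level was 31596 to 33496 CPM (counts relative to the size of the library) in BSA libraries, 33188 to 33713 with IL-1β, 29239 to 31318 with palmitate and 28473 to 30460 with both. The part of this shift in the results was not tested. Leukocyte markers (12 genes) summed to 2.75 to 4.44 CPM in BSA libraries, 3.52 to 3.83 with IL-1β, 2.72 to 3.62 with palmitate and 3.39 to 4.00 with both, and Adgre1, Cd3e, Cd3d and Flt3 stayed at 3 counts or fewer in every library. The 4 endothelial markers summed to 1.42 to 2.25 CPM and the 5 epithelial markers to 0.164 to 0.760 CPM over all libraries. In bulk RNA a change in the share of cells that express a gene and a change in RNA per cell cannot be told apart.

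All 10 genes stood higher with palmitate than in BSA (control), by fitted log2 fold changes from 0.32 in B2m to 4.46 in Psmb8. For each of them every palmitate library was above every BSA library. Psmb9 passed the filter on low counts only through libraries with palmitate. Its place in this and later counts of genes higher with palmitate thus carries no independent support. IL-1β moved 7 of the 10, by less, and no further change was detected when IL-1β was added to palmitate. Levels are given as CPM on TMM-scaled library sizes. Differences were tested with edgeR (quasi-likelihood test), p-values were adjusted by Benjamini-Hochberg over the 16306 genes, and a gene was called at an adjusted p under 0.05. Of all genes tested, 19.8% were called higher and 17.5% lower with palmitate than in BSA, and 19.5% had palmitate libraries all above the BSA libraries. Higher genes made up 53.1% of the calls, or 37.1% under upper-quartile scaling, which changed no call of the 10 genes. The median log2 fold change was 1.45 over the 10 genes and -0.0030 over all genes.

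**Figure D1:**
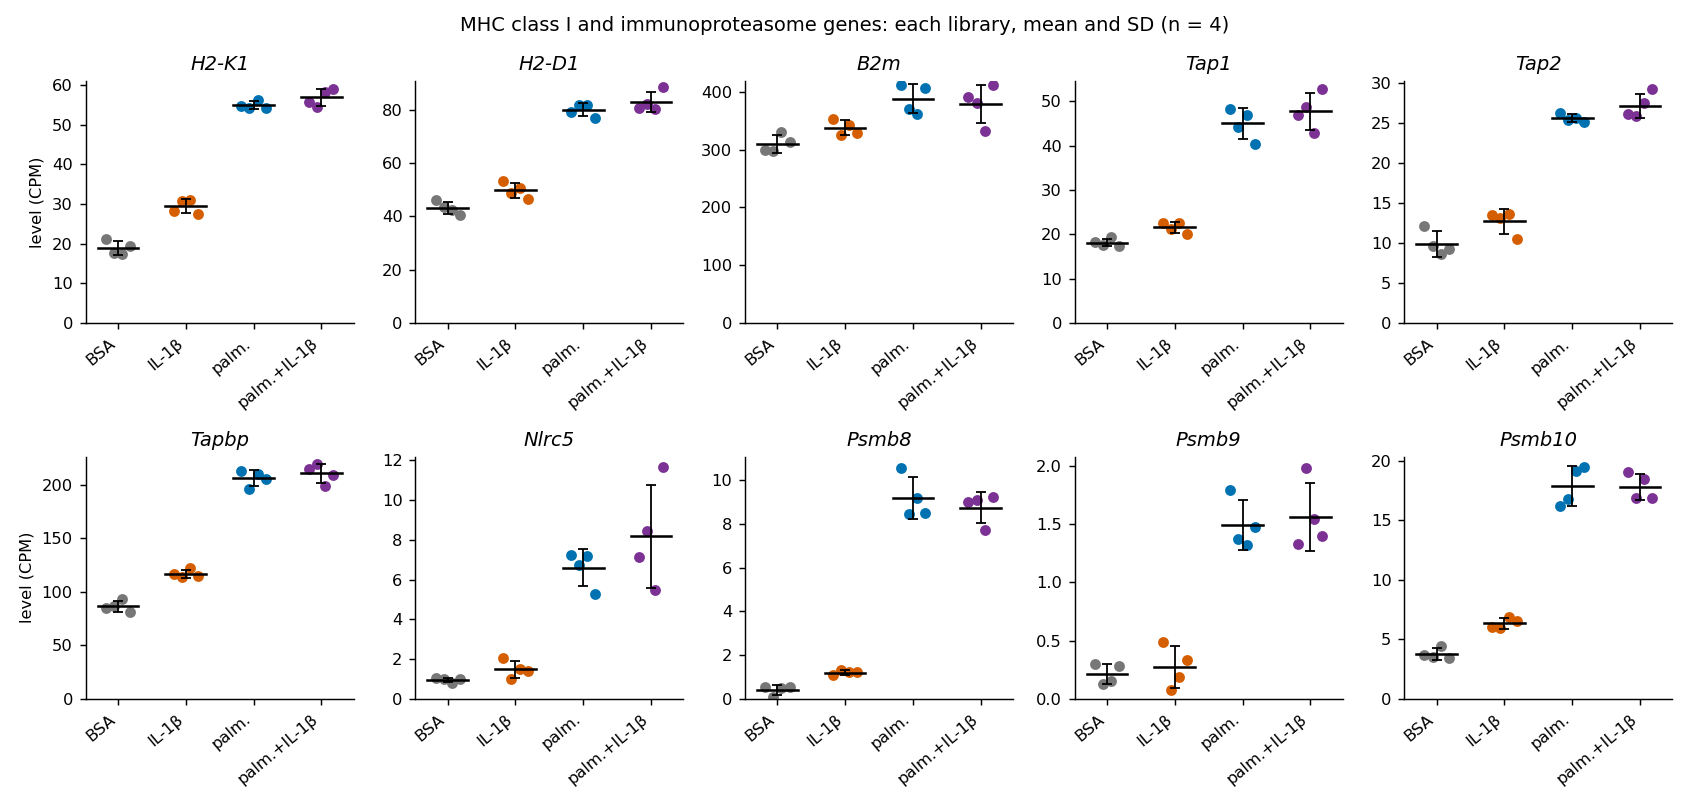
Each point is the level of 1 gene in 1 library in CPM (linear axis from 0), by condition, with a horizontal bar for the mean and an error bar for the SD of 4 libraries. The palmitate and the palmitate + IL-1β libraries lie above all BSA libraries in each panel. Relative to the BSA level, B2m shows the smallest step and Psmb8 the largest.

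Heavy chains present the peptide, and both rose. H2-K1 stood at 21.1, 17.7, 17.4 and 19.4 CPM in BSA libraries, 28.3, 30.8, 31.1 and 27.5 with IL-1β, 54.8, 54.3, 56.3 and 54.3 with palmitate, and 55.8, 54.5, 58.2 and 58.9 with both. The BSA, IL-1β and palmitate libraries formed 3 separate ranges, and the libraries with both agents overlapped those with palmitate. The rise with palmitate was 1.53 ± 0.06 on the log2 scale (SE, n = 4 per condition, edgeR with Benjamini-Hochberg adjustment, adjusted p = 2.6e-20), and that with IL-1β was 0.64 ± 0.06 (edgeR adjusted p = 1.2e-09).

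H2-D1, the other classical heavy chain of this strain, had more counts in every condition. Its level was 46.1, 43.4, 42.5 and 40.5 CPM in BSA libraries, 53.4, 48.8, 50.5 and 46.5 with IL-1β, 79.3, 81.8, 81.9 and 76.9 with palmitate, and 80.7, 82.2, 80.2 and 88.4 with both. Here too the IL-1β libraries lay just above the BSA libraries and far below both groups with palmitate. Palmitate raised it by 0.89 ± 0.05 (log2, edgeR adjusted p = 6.6e-16) and IL-1β by 0.21 ± 0.05 (edgeR adjusted p = 0.00387). Its transcript shared 54.98% of its bases, at 95% identity or more, with 18 other genes. The largest share, 34.2%, was with 5430410E06Rik, whose exons overlap those of H2-D1 on the opposite strand, at the same place in the genome. The H2-K1 transcript shared 30.6%, all with Gm53999, which overlaps H2-K1 in the same way. Reads that fitted several places were not counted, so that the level of H2-D1 may be understated, by an amount that was not measured.

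B2m, the light chain common to all class I molecules, was the most abundant of the 10 genes and changed least. The BSA libraries held 300, 298, 331 and 313 CPM, IL-1β libraries 354, 325, 343 and 330, palmitate libraries 412, 371, 362 and 406, and those with both 390, 381, 333 and 412. Palmitate libraries lay above BSA libraries, while IL-1β libraries overlapped them. The rise with palmitate was 0.32 ± 0.05 on the log2 scale (edgeR adjusted p = 2.1e-05), and the difference with IL-1β, 0.12 ± 0.05, did not pass the test (edgeR adjusted p = 0.140).

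Within a library, the summed heavy chains H2-K1 and H2-D1 were compared with B2m in counts per kilobase of exon. This ratio was 0.139 ± 0.0129 in BSA libraries (mean ± SD, n = 4), 0.161 ± 0.00597 with IL-1β, 0.240 ± 0.0204 with palmitate and 0.254 ± 0.0206 with both. The heavy chains thus moved further than the light chain, with a log2 ratio 0.79 ± 0.09 (SE) higher with palmitate than in BSA (exact two-sided permutation test, p = 0.0286, the smallest that 4 against 4 libraries can give, adjusted p = 0.0381 over 24 tests of ratios). With IL-1β against BSA the log2 ratio differed by 0.22 ± 0.07, and the libraries overlapped (exact permutation test, p = 0.0571, adjusted p = 0.0722).

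Both chains of the peptide transporter rose. Tap1 was measured at 18.2, 17.6, 19.3 and 17.4 CPM in BSA libraries, 22.5, 21.1, 22.5 and 20.1 with IL-1β, 48.3, 44.2, 46.9 and 40.5 with palmitate, and 46.9, 48.6, 42.7 and 52.8 with both. Every palmitate library held more than every IL-1β library, and every IL-1β library more than every BSA library. Its log2 fold change was 1.31 ± 0.06 with palmitate (edgeR adjusted p = 3.3e-17) and 0.25 ± 0.07 with IL-1β (edgeR adjusted p = 0.00985).

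Tap2, its partner, stood at 12.2, 9.63, 8.58 and 9.23 CPM in BSA libraries, 13.6, 13.1, 13.7 and 10.5 with IL-1β, 26.3, 25.4, 25.7 and 25.2 with palmitate, and 26.1, 25.9, 27.5 and 29.2 with both. IL-1β replicate 8 fell inside the BSA range, and the palmitate libraries lay apart from both. Palmitate raised Tap2 by 1.36 ± 0.08 (log2, edgeR adjusted p = 4.3e-14), and IL-1β by 0.36 ± 0.09 (edgeR adjusted p = 0.00628).

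Tapasin links the transporter to the waiting heavy chain. Tapbp was at 84.5, 86.4, 93.0 and 81.5 CPM in BSA libraries, 116, 114.4, 122 and 115 with IL-1β, 214, 196, 211 and 206 with palmitate, and 215, 220, 199 and 210 with both. These are again 3 levels, of which the highest holds both palmitate conditions. Its change with palmitate, 1.26 ± 0.05 on the log2 scale, had the smallest adjusted p of the 10 genes (edgeR adjusted p = 1.3e-20), and its change with IL-1β was 0.44 ± 0.05 (edgeR adjusted p = 1.2e-08). Exons of Tapbp overlap those of Zbtb22, which stayed between 29.9 and 30.6 CPM on average in the 4 conditions. The Tapbp transcript shared 40.9% of its bases with 49 other genes. The largest share, 29.9%, was with Gm19412, whose exons overlap those of Tapbp on the opposite strand.

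Nlrc5, the transactivator, was scarce in BSA libraries. Its counts were 35, 31, 21 and 28 there, or 1.04, 1.00, 0.801 and 0.979 CPM, against 2.05, 1.02, 1.49 and 1.41 CPM with IL-1β, 7.24, 6.76, 7.16 and 5.26 with palmitate, and 7.14, 8.44, 5.47 and 11.6 with both. Libraries with palmitate were all above those without it, and IL-1β libraries overlapped the BSA range. The rise with palmitate was 2.78 ± 0.24 on the log2 scale (edgeR adjusted p = 1.3e-08). With IL-1β the fitted difference was 0.63 ± 0.30 and did not pass (edgeR adjusted p = 0.192), although DESeq2 gave 0.63 with an adjusted p of 0.04997.

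The inducible proteasome subunits include the gene with the largest change, Psmb8. It encodes the β5i subunit and gave 18, 2, 13 and 16 counts in BSA libraries, or 0.533, 0.0646, 0.496 and 0.559 CPM, and 1.06, 1.33, 1.20 and 1.20 CPM with IL-1β, 10.5, 8.46, 9.18 and 8.50 with palmitate, and 8.98, 9.07, 7.72 and 9.21 with both. BSA replicate 2, with 2 counts, was below the limit of 3 counts (0.0969 CPM in that library) and far below the other BSA libraries. Palmitate raised Psmb8 by 4.46 ± 0.20 on the log2 scale (edgeR adjusted p = 6.9e-18), a 21.97-fold difference, and IL-1β by 1.54 ± 0.28 (edgeR adjusted p = 1.5e-04). Without BSA replicate 2 these were 4.08 (edgeR adjusted p = 4.5e-19) and 1.17 (edgeR adjusted p = 3.1e-04).

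Psmb9 (β1i) had the lowest CPM of the 10 genes in every condition. It had 10, 4, 4 and 8 counts in BSA libraries and 12, 2, 6 and 8 with IL-1β, which are 0.296, 0.129, 0.153 and 0.280 CPM and 0.491, 0.0781, 0.190 and 0.331 CPM. With palmitate it stood at 1.80, 1.38, 1.32 and 1.48 CPM, and with both agents at 1.33, 1.99, 1.54 and 1.4. The palmitate libraries lay above all BSA and IL-1β libraries and overlapped those with both agents. The fitted rise with palmitate was 2.74 ± 0.32 against BSA on the log2 scale (edgeR adjusted p = 2.1e-08). Psmb9 passed the filter on low counts only through the libraries with palmitate, where it was high. This rise is therefore a description and carries no independent support. IL-1β and BSA libraries overlapped, with a difference of 0.29 ± 0.44 (edgeR adjusted p = 0.731, 95% interval -0.61 to 1.19). A change of this size was not detectable at this depth. Its transcript shared 38.1% of its bases with Tap1 on the opposite strand, and the strand setting used in counting is known only from the name of the table.

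Psmb10 (β2i) was the most abundant inducible subunit. The 4 BSA libraries held 3.67, 3.52, 4.46 and 3.39 CPM, those with IL-1β 6.02, 5.94, 6.90 and 6.50, those with palmitate 16.2, 16.8, 19.1 and 19.5, and those with both 19.0, 16.9, 18.5 and 16.9. The 3 levels were separate, in the order BSA, IL-1β, palmitate. Its log2 fold change was 2.25 ± 0.09 with palmitate (edgeR adjusted p = 2.5e-19) and 0.76 ± 0.10 with IL-1β (edgeR adjusted p = 1.6e-06).

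**Figure D2:**
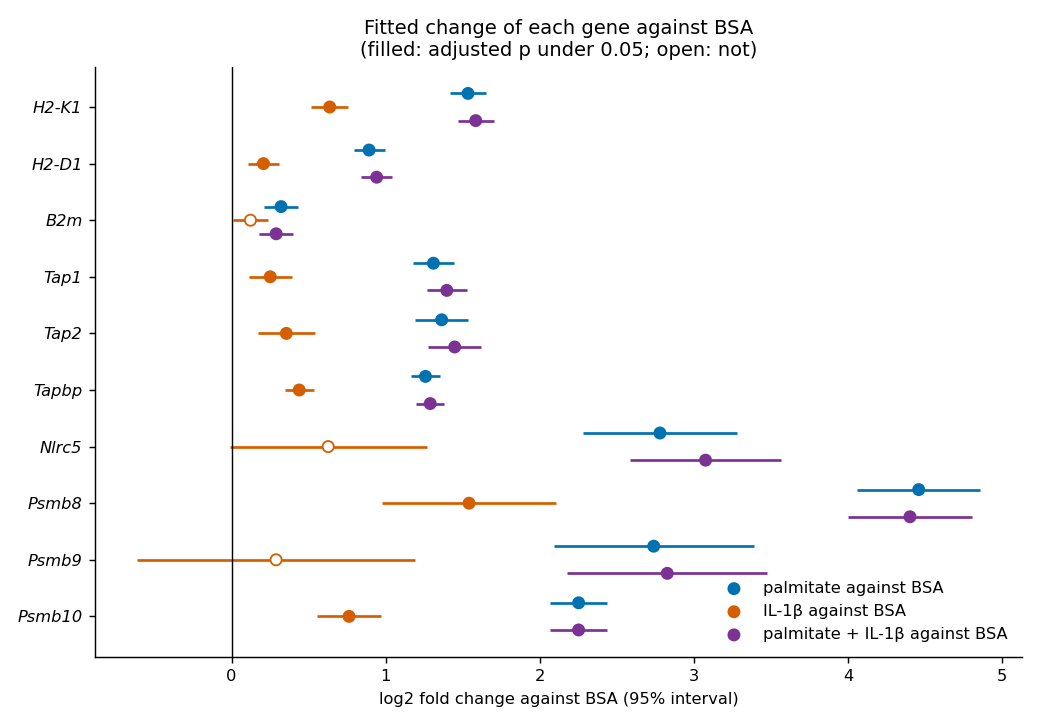
Fitted log2 fold change of each gene against BSA with its 95% interval, for palmitate, IL-1β and palmitate + IL-1β (4 libraries per condition), with filled points where the adjusted p was under 0.05. The points for palmitate with and without IL-1β lie close together, from 0.29 to 4.46, and those for IL-1β alone lie to their left, with B2m, Nlrc5 and Psmb9 open.

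Over the 10 genes, IL-1β gave 7 called higher, against 10.1% of all genes, and 6 whose IL-1β libraries all lay above the BSA libraries, against 11.1% of all genes. The median log2 fold change of the 10 was 0.40, against -0.0049 over all genes. Tap2 was called although its libraries overlapped. Palmitate exceeded IL-1β for all 10 genes, with log2 differences from 0.20 in B2m (edgeR adjusted p = 0.00587) to 2.92 in Psmb8 (edgeR adjusted p = 7.0e-15) and a median of 1.03, where 16.5% of all genes were called higher.

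The standard subunits that the inducible ones replace showed little change with palmitate. Psmb5 (standard partner of Psmb8) averaged 12.9 CPM in BSA libraries, 11.0 with IL-1β, 13.5 with palmitate and 12.9 with both, and its log2 difference of 0.07 with palmitate was not called (edgeR adjusted p = 0.524). Psmb6, the counterpart of Psmb9, rose by 0.11 with palmitate (edgeR adjusted p = 0.0394). Psmb7, the counterpart of Psmb10, differed by 0.02 with palmitate (edgeR adjusted p = 0.821) and fell by 0.20 with IL-1β (edgeR adjusted p = 0.0296). Over the 3 subunits, log2 differences with IL-1β ran from -0.23 in Psmb5 to -0.03 in Psmb6. In edgeR 2 of them had an unadjusted p under 0.05, and Psmb7 alone was called.

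The balance of inducible to standard subunit was followed as a ratio of counts per kilobase of exon within each library. For Psmb8 to Psmb5 the ratio averaged 0.0167 ± 0.00938 in BSA libraries (mean ± SD, n = 4), 0.0572 ± 0.00360 with IL-1β, 0.358 ± 0.0549 with palmitate and 0.366 ± 0.0800 with both. In log2 terms palmitate raised it by 4.80 ± 0.75 (SE, exact permutation test, p = 0.0286, adjusted p = 0.0381), or by 4.06 without BSA replicate 2. IL-1β raised it by 2.16 ± 0.74 (exact permutation test, p = 0.0286, adjusted p = 0.0381), a value that rested partly on BSA replicate 2, since it was 1.42 without that library. Psmb5 itself was lower with IL-1β (mean 6.13 against 7.17 CPM per kilobase of exon in BSA libraries), which enters this ratio.

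For Psmb9 to Psmb6 the ratio was 0.00203 ± 0.000777 in BSA libraries, 0.00267 ± 0.00178 with IL-1β, 0.0132 ± 0.00230 with palmitate and 0.0145 ± 0.00284 with both. The step with palmitate was 2.77 ± 0.31 on the log2 scale (exact permutation test, p = 0.0286), and IL-1β libraries could not be told from BSA libraries (exact permutation test, p = 0.800). For Psmb10 to Psmb7 the ratio was 0.407 ± 0.0396, 0.790 ± 0.0799, 1.93 ± 0.257 and 1.99 ± 0.134 in BSA, IL-1β, palmitate and both. It rose by 0.95 ± 0.10 with IL-1β and by 2.24 ± 0.12 with palmitate on the log2 scale (exact permutation test, p = 0.0286 for each).

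For these ratios of a single gene to another, the change between conditions does not depend on gene length, but the absolute values do. The ratio of the summed heavy chains to B2m weights its genes by length, and was computed over all exon bases only. With the length of the canonical transcript in place of all exon bases, Psmb10 to Psmb7 became 0.104 in BSA libraries and 0.491 with palmitate, so that Psmb10 passed Psmb7 under one length and not under the other. Psmb8 to Psmb5 became 0.0318 and 0.681, and Psmb9 to Psmb6 0.00270 and 0.0176. Under both lengths the order among the inducible subunits relative to their partners in BSA libraries was Psmb10, Psmb8, Psmb9.

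**Figure D3:**
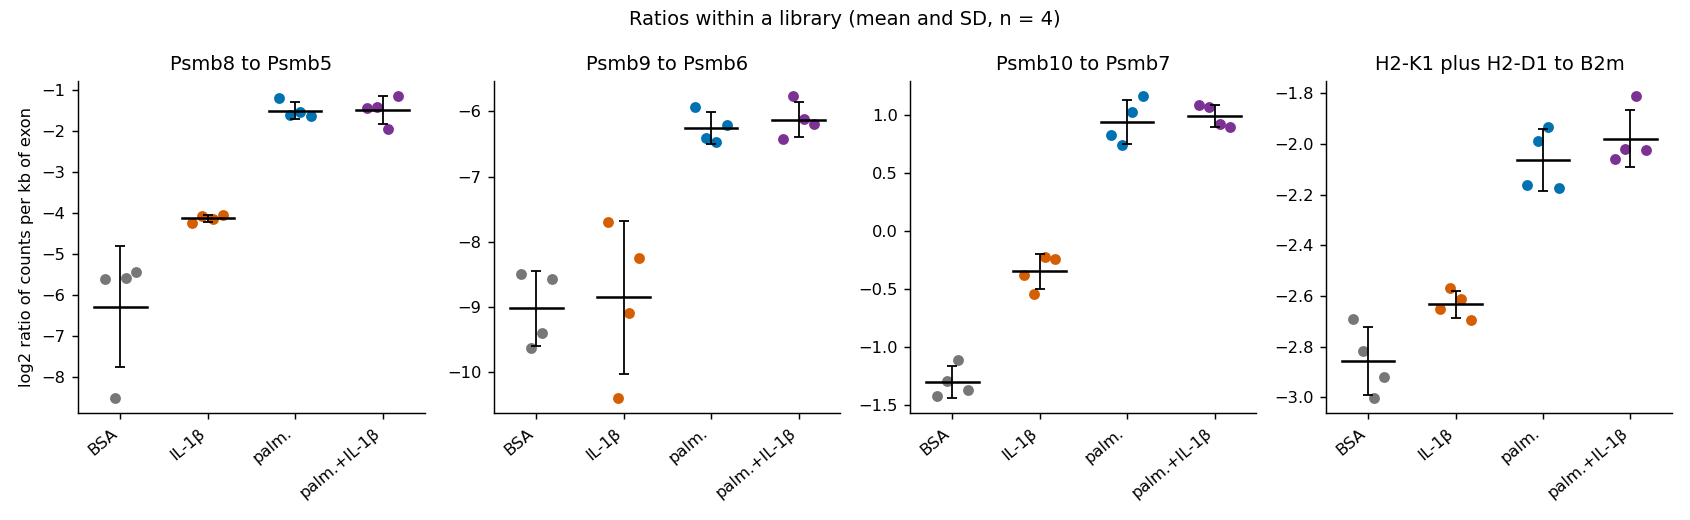
Log2 ratio of counts per kilobase of exon within each library, for the 3 inducible subunits against their standard partners and for H2-K1 plus H2-D1 against B2m, with the mean and SD of 4 libraries per condition. Palmitate libraries lie above BSA libraries in every panel, and the Psmb8 to Psmb5 ratio of BSA replicate 2, at -8.51, is far below the other BSA libraries.

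Levels per kilobase of exon ranged widely among the 10 genes. In BSA libraries B2m had 147 ± 7.38 CPM per kilobase (mean ± SD, n = 4), followed by Tapbp with 19.6 ± 1.10, H2-D1 with 14.4 ± 0.768 and H2-K1 with 5.94 ± 0.544. Tap1 (3.02 ± 0.140), Psmb10 (2.17 ± 0.278) and Tap2 (2.08 ± 0.332) came next, the ranges of the last pair overlapping. Psmb8 (0.121 ± 0.0685), Nlrc5 (0.112 ± 0.0123) and Psmb9 (0.0564 ± 0.0225) were lowest, and the range of Psmb8 overlapped those of both others. Per kilobase of the canonical transcript, the genes from B2m to Tap2 kept this order of means in BSA libraries, whereas Psmb9 (0.158) stood above Nlrc5 (0.126). With palmitate, Psmb8 at 2.69 ± 0.284 CPM per kilobase of exon stood above Nlrc5 at 0.778 ± 0.108, and did so under the canonical length too (5.39 and 0.871). The order of Psmb10 and Tap1 with palmitate turned with the length, from 10.3 and 7.49 over all exons to 13.6 and 14.5 over the canonical transcript.

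No difference was detected in any of the 10 genes when IL-1β was added to palmitate. The fitted log2 differences of palmitate + IL-1β from palmitate ran from -0.06 in Psmb8 (95% interval -0.31 to 0.19) to 0.30 in Nlrc5 (95% interval -0.07 to 0.66). In edgeR's quasi-likelihood test 0 of the 10 were called, 0 had an unadjusted p under 0.05, and DESeq2 called 0 as well, where 5.71% of all genes were called higher and 4.10% lower. For H2-K1 the interval was -0.06 to 0.16 and for B2m -0.14 to 0.08, whereas for Psmb9 it was -0.38 to 0.56, which leaves room for a change of that size. No difference between these conditions was detected in the 4 ratios (exact permutation tests, p = 0.943 for Psmb8 to Psmb5, 0.457 for Psmb9 to Psmb6, 0.657 for Psmb10 to Psmb7 and 0.343 for heavy chains to B2m).

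Against BSA, palmitate + IL-1β left all 10 genes higher, with a median log2 fold change of 1.52, where 24.8% of all genes were called higher. Psmb8 was again first at 4.40 ± 0.20 (edgeR adjusted p = 7.8e-18), followed by Nlrc5 at 3.07 ± 0.23 (edgeR adjusted p = 1.6e-09) and Psmb9 at 2.83 ± 0.32 (edgeR adjusted p = 7.2e-09). B2m was last at 0.29 ± 0.05 (edgeR adjusted p = 6.3e-05).

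With IL-1β present in both conditions, palmitate still raised all 10 genes, where 18.9% of all genes were called higher. Libraries did not overlap for 9 of them, against 16.7% of all genes, B2m being the exception. The median log2 difference was 1.12, and the range ran from 0.17 ± 0.05 in B2m (edgeR adjusted p = 0.0180) to 2.86 ± 0.17 in Psmb8 (edgeR adjusted p = 1.0e-14). The call of B2m was lost without IL-1β replicate 6 (0.15, edgeR adjusted p = 0.0604) and without palmitate + IL-1β replicate 13 (0.14, 0.0750), 14 (0.16, 0.0520) or 16 (0.13, 0.0831).

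The effect of palmitate was smaller in the presence of IL-1β for 4 of the genes. All 10 interaction terms, the log2 effect of palmitate with IL-1β minus that without it, were below 0, and 4 of the 10 were called, against 1.83% of all genes called lower and a median of -0.0018 over all genes. They were Psmb8 (-1.60 ± 0.30, edgeR adjusted p = 0.00142), Psmb10 (-0.76 ± 0.13, edgeR adjusted p = 2.2e-04), H2-K1 (-0.59 ± 0.08, edgeR adjusted p = 6.1e-06) and Tapbp (-0.41 ± 0.06, edgeR adjusted p = 6.6e-05). For these 4 genes the sum of the single effects exceeded the level reached with both agents. The term of Psmb8 was -1.23 without BSA replicate 2 (edgeR adjusted p = 0.00205). H2-D1 (-0.16) and Tap2 (-0.27) passed before adjustment only, with edgeR adjusted p of 0.399 and 0.397, and Psmb9 (-0.20, 95% interval -1.21 to 0.81) was too sparse to place.

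**Figure D4:**
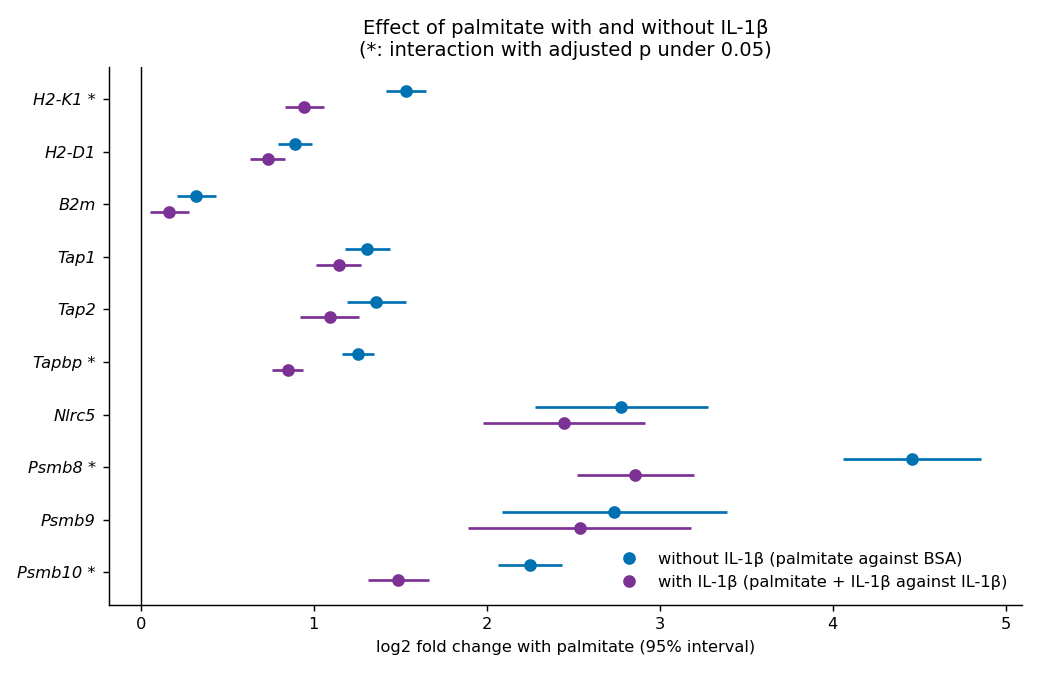
Fitted log2 effect of palmitate on each gene without IL-1β (palmitate against BSA) and with it (palmitate + IL-1β against IL-1β), with 95% intervals and 4 libraries per condition, an asterisk marking a called interaction. For Psmb8 the effect is 4.46 without IL-1β and 2.86 with it, and for Tap1 1.31 and 1.15.

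Mean levels rose from BSA over IL-1β to palmitate in all 10, with a called step from IL-1β to palmitate in each, a called step from BSA to IL-1β in all but B2m, Nlrc5 and Psmb9, and no called step between palmitate and palmitate + IL-1β. Across the 16 libraries Pearson correlations between log2 levels of pairs of the 10 genes ran from 0.794 (B2m and Psmb9) to 0.994 (Tapbp and Psmb10), with a median of 0.953 over 45 pairs, which is a description, since the libraries share 4 conditions.

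The other genes of the pathway moved with the 10 in part. Of 23 further class I and class I-like genes 12 were tested, and with palmitate 6 were higher and 2 lower. Their median log2 fold change was 0.64. Of all genes, 19.8% were called higher and 17.5% lower, and the 2 lower genes were near that share. H2-Q4, a nonclassical heavy chain of the Q region, rose most, by 4.28 ± 0.19 (edgeR adjusted p = 1.3e-15), from 0.562 ± 0.262 to 11.3 ± 0.246 CPM. Fcgrt, the heavy chain of the neonatal Fc receptor, fell by 0.63 on the log2 scale (edgeR adjusted p = 5.2e-13), and Cd1d1, which presents lipids, by 0.46 (edgeR adjusted p = 1.4e-04). With IL-1β 2 of the 12 were higher, where 10.1% of all genes were called higher, and 1 was lower, Fcgrt, where 4.97% were called lower.

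Peptide loading and trimming genes divided. Of 19 tested, 8 were higher and 1 lower with palmitate, with a median of 0.12. Of all genes, 19.8% were called higher and 17.5% lower. Tapbpl, a relative of tapasin that edits peptides, rose by 1.56 ± 0.07 (edgeR adjusted p = 7.5e-18), and Erap1, the aminopeptidase that trims peptides in the endoplasmic reticulum, by 1.31 ± 0.05 (edgeR adjusted p = 9.5e-20). The general chaperones of the loading complex were nearly level, with 0.04 for Calr (edgeR adjusted p = 0.609) and 0.12 for Pdia3 (edgeR adjusted p = 0.0621). Npepps, a cytosolic aminopeptidase, fell by 0.16 (edgeR adjusted p = 0.00318). With IL-1β 3 of the 19 were higher, against 10.1% of all genes, Erap1 by 0.45 and Tapbpl by 0.30 among them.

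The rest of the proteasome was followed in 2 lists. Among 11 core subunits other than those above, 9 were higher with palmitate, where 19.8% of all genes were called higher, and none lower. The median was 0.25 and the maximum 0.89 in Psma6. IL-1β moved none past the adjusted threshold in edgeR, with 4 at an unadjusted p under 0.05. Of 10 activators and assembly factors, 5 were higher with palmitate, against the same 19.8% of all genes. Psme2 and Psme1, which form the PA28 cap that favours peptides for class I, rose by 1.43 ± 0.06 (edgeR adjusted p = 9.3e-20) and 0.82 ± 0.07 (edgeR adjusted p = 7.1e-09). The interaction term was called for Psme2 (-0.44, edgeR adjusted p = 5.6e-04) and for Erap1 (-0.40, edgeR adjusted p = 5.4e-04).

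Regulators of class I transcription were followed as a list of 24, of which 21 were tested. Palmitate raised 12 and lowered none, where 19.8% of all genes were called higher and 17.5% lower. IL-1β raised 9, against 10.1% of all genes. Irf1, an interferon regulatory factor, stood at 19.3 ± 0.598 CPM in BSA libraries, 37.3 ± 1.46 with IL-1β, 44.0 ± 2.93 with palmitate and 49.4 ± 0.647 with both. Its log2 fold change was 1.18 ± 0.05 with palmitate (edgeR adjusted p = 2.2e-18) and 0.95 ± 0.05 with IL-1β (edgeR adjusted p = 5.6e-15), with an interaction term of -0.78 ± 0.07 (edgeR adjusted p = 3.6e-09). Irf7 rose most, by 2.75 ± 0.19 with palmitate (edgeR adjusted p = 1.6e-09).

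Rfx5, a partner of Nlrc5 at class I promoters, was followed too. It was not called with palmitate (0.09, edgeR adjusted p = 0.275) and rose by 0.38 ± 0.06 with IL-1β (edgeR adjusted p = 1.4e-05). Ciita, the class II counterpart of Nlrc5, had 0 to 7 counts in each library and was not tested. When IL-1β was added to palmitate, 5 of the 21 regulators were higher, against 5.71% of all genes, Irf1 by 0.17 ± 0.05 (edgeR adjusted p = 0.0199).

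Of interferon transcripts, 5 were followed, and other interferon genes were not. Ifng, Ifna4, Ifnl2 and Ifnl3 had no count in any library, which allows up to 3 counts, and Ifnb1 had 1 count in a single palmitate library. Of 11 tested genes of interferon receptors, their kinases and their feedback regulators, 10 were higher with palmitate, against 19.8% of all genes. Usp18 rose most, by 3.88 ± 0.26 (edgeR adjusted p = 3.4e-08). With IL-1β 5 of the 11 were higher, against 10.1% of all genes. Whether an interferon was made before 24 h was not measured.

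In the class II pathway 4 of 12 genes were tested. Cd74, the invariant chain, rose by 2.56 ± 0.25 with palmitate (edgeR adjusted p = 5.1e-10), and Ifi30, a lysosomal reductase, fell by 0.26 (edgeR adjusted p = 0.00631). IL-1β moved none of the 4 past the adjusted threshold in edgeR, and none had an unadjusted p under 0.05.

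**Figure D5:**
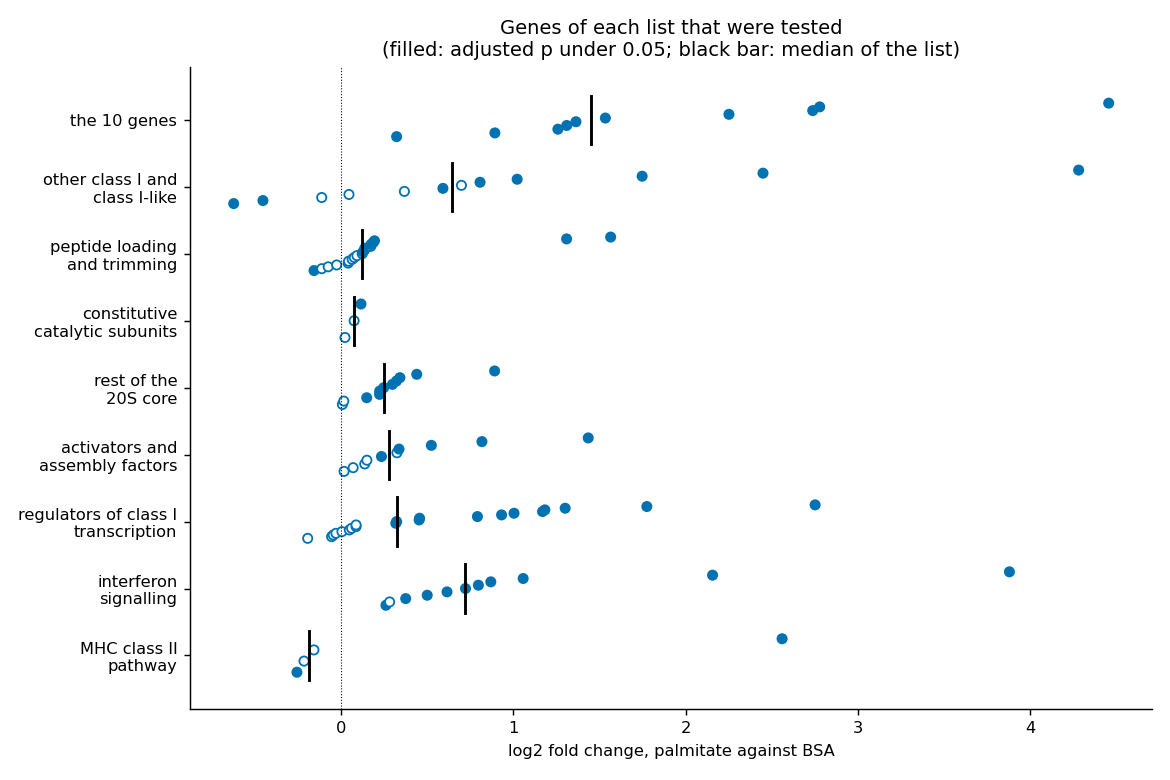
Fitted log2 fold change with palmitate against BSA for each tested gene of the 10 and of 8 further lists, filled where the adjusted p was under 0.05, with a black bar for the median of each list. The 10 genes have a median of 1.45, the standard catalytic subunits lie close to 0, and H2-Q4, Usp18, Irf7 and Cd74 stand to the right of their lists.

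Genes whose pattern across the 16 libraries was most like the mean of the 10 were Adamts14 (Pearson r = 0.996), Ifit1 (0.995), Cebpb (0.995), Gbp2 (0.994), Gbp3 (0.994), Ifi47 (0.994), Parp9 (0.993), Gbp9 (0.993), Gbp6 (0.993) and Irgm1 (0.993), among genes with an average log2 CPM of at least 1. These values describe 16 libraries of 4 conditions and carry no test. Nearest to Tapbp were Erap1, Osmr and Gbp2, to Tap1 Herc6, Irgm2 and Irgm1, to Tap2 Jun, Parp10 and Gbp4, and to H2-D1 Usp18, Tapbpl and Iigp1. Psmb8 ran closest to Ccl5 (0.983), Psmb10 to Cx3cl1 (0.993), H2-K1 to Trp53 (0.994) and Nlrc5 to Iigp1 (0.994), while the nearest genes of B2m (Smad1, 0.922) and Psmb9 (Tnn, 0.968) were less close.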

How the data were processed

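Bulk RNA of mGF was measured in 16 libraries, 4 per condition, grouped by the labels of the samples. The deposited values are raw counts per gene, which the authors made by trimming with Trimmomatic 0.39, aligning to GRCm39 with STAR 2.7.10a and counting with HTSeq 2.0.9 per gene of GENCODE vM33 (tool versions from the submitters' processing notes). Reads that fell on several places (3.42% to 4.51% of a library) or several genes (1.22% to 1.37%) were not counted and stayed, with the other summary rows, out of library sizes. The paper's methods describe oligo(dT)-primed cDNA, but a strand-keeping kit for total RNA is given in the labels. That counting was by strand is known only from the name of the table. Reads of overlapping genes on opposite strands may therefore have been left out or counted for the wrong gene. PCR copies were not marked, and floors (3 counts) and intervals of counts cover counting error only.

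From these counts, edgeR 4.0.16 (R 4.3.3) was run with glmQLFit (robust) and glmQLFTest, TMM scaling and filterByExpr (minimum count 10, minimum total 15), with all 16 libraries in a single fit and Benjamini-Hochberg adjustment over 16306 genes. Within-library ratios were compared by exact permutation tests, adjusted over 24 tests. Only the edgeR step was tested on simulated data, with changes planted in the palmitate libraries. The permutation tests of ratios were not simulated. Positions and lengths came from GENCODE vM39 on GRCm39, promoter windows from RefSeq (GRCm38.p6), and transcript sequence shared at 95% identity over at least 50 bases was found with BLAST+ 2.17.0. No genome coordinate was converted between builds.

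The 10 genes, the lists and the tests were chosen with earlier results of these data known. Named were all 10 genes, a set of pathway genes picked by role, the largest called rise and fall of each list with palmitate, and the genes most correlated with the 10. Regulators or list members named beside these were chosen after their values were seen. Alternatives were upper-quartile and RLE scaling, no filter, a floor of 10 counts per library, library sizes without mitochondrial and ribosomal RNA genes, DESeq2 1.42.0, only the 8 libraries compared, 0.5 added to counts in ratios, leaving out each library, and, added after the data were seen, canonical transcript length. Values of some listed genes are not reported here.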

Additional observations from a re-analysis of the deposited data

Results flagged for a closer look

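In 4 of 56 groups of 4 libraries, a single library lay far from the other 3, where a threshold of this kind marks about 1 group in 20 by chance. Psmb8 was at 0.0646 CPM in BSA replicate 2, and the log2 ratio of Psmb8 to Psmb5 there, which rests on the same 2 counts, was -8.51. In palmitate + IL-1β replicate 15, Psmb8 was at 7.72 CPM, below the other 3 libraries, and the log2 ratio of heavy chains to B2m was -1.81, above them.

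Palmitate's effect depended on IL-1β in 4 genes by edgeR's test of the interaction, with terms of -0.59 for H2-K1, -0.41 for Tapbp, -1.60 for Psmb8 and -0.76 for Psmb10. No cause was tested.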

How the results depend on the processing

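The count of the 10 genes called in each comparison stayed within 1.5 times its main value under every alternative run. With a floor of 10 counts in every library, Psmb8 and Psmb9 were not tested, since BSA libraries fell below it. Values of genes not tested under a setting are not among those counted here. Of 465 values of single genes under settings that kept every library, 463 kept their direction and their side of the threshold, and Nlrc5 with IL-1β against BSA passed with no expression filter (0.61, edgeR adjusted p = 0.0310) and in DESeq2 (0.63, adjusted p = 0.04997). Of 640 values without 1 library, 627 kept both. B2m in palmitate + IL-1β against IL-1β ranged from 0.13 to 0.23 and lost its call without any of 4 libraries. Directions turned among values that had not been called, where the fits without 1 library ranged from -0.14 to 0.58 for Psmb9 with IL-1β against BSA (-0.14 without IL-1β replicate 5), from -0.495 to 0.225 for its interaction, and, in palmitate + IL-1β against palmitate, from -0.0497 to 0.17 for Psmb9, -0.10 to 0.00845 for Psmb8, -0.0389 to 0.0406 for Psmb10 and -0.0729 to 0.0262 for B2m. The cause was not tested.

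Upper-quartile scaling lowered the share of higher genes among all called genes, from 53.1% to 37.1% for palmitate against BSA, 67.1% to 43.5% for IL-1β against BSA and 52.4% to 38.7% for palmitate + IL-1β against BSA, and no call of the 10 genes changed. No paired analysis was possible because the replicate numbers, 1 to 16, are shared by no pair of conditions. Depth limits Psmb8 and Psmb9 in BSA libraries most, with 2 to 18 and 4 to 10 counts, and no fold of theirs is firmer than those counts allow.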
